A study of Mus musculus with 6 samples.

Results

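The genes described here are the machinery that carries a cell from G1 into S phase: the D-type cyclins Ccnd1, Ccnd2 and Ccnd3, the E-type cyclins Ccne1 and Ccne2, the kinases Cdk2, Cdk4 and Cdk6, the retinoblastoma gene Rb1 and the transcription factor gene E2f1. They were taken as the probes whose gene name in the scanner files was one of these 10 symbols, which gave 14 probes (23 spots) among 55681 probes (59305 spots), or 10 of 34797 gene names. Where probes of a gene differed in brightness, its values are those of the brightest. Rb1 was the only one of the 10 that passed the test, and it did so in TIAR KO MEF, where its signal fell 3.04-fold against WT MEF. In TIAR KO against WT MEF, 7.18% of all gene names passed, and 13.7% of those well above background. The signal of E2f1 was lower there by a similar amount but missed the threshold, and the 3 kinases differed by less than 2-fold in every comparison as normalized here.

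MEF (mouse embryonic fibroblasts) are cultured from embryos, and all lines here were immortalized. WT MEF came from strain W4, TIA1 KO MEF, which lack the RNA-binding protein TIA1, from BALB/c mice, and TIAR KO MEF, which lack its relative TIAR (gene Tial1), from C57BL/6 mice. Each group had 2 samples described as independent replicates, and each sample was hybridized with 1 dye to 1 of 6 arrays. Genotype, strain and cell line therefore cannot be told apart. The methods call the arrays of a condition 2 independent experiments, and the p-values measure the spread between them. On the slide, both TIA1 KO arrays occupied a row of their own apart from the remaining 4, so position is confounded with that genotype and the effects cannot be told apart. Their median spot intensity was also higher, at 458 and 218, against 152 and 140 for WT and 136 and 119 for TIAR KO. Values below are normalized log2 intensities of a probe. A log2 fold change of 1 is a doubling of signal, and errors are limma standard errors from 2 arrays per group. For these and for the p-values, limma draws the variance of a probe in part toward that of all probes. Except for the summed markers, levels are compared between groups for 1 probe at a time.

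D-type cyclins are made in response to growth signals and activate Cdk4 and Cdk6, and E-type cyclins activate Cdk2 somewhat later. These kinases phosphorylate the Rb protein, which in its unphosphorylated form holds E2F factors inactive. Released E2F factors switch on genes of DNA replication, and CDK inhibitors of the Ink4 family (Cdkn2 genes) and the Cip/Kip family (Cdkn1 genes) oppose the kinases. TIA1 and TIAR are known for control of splicing and of mRNA translation. The comparisons ask which of these mRNAs differed between MEF with and without each protein.

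The targeted genes were read first. The brightest Tia1 probe (mm9, chr6:86383073-86383132) read 10.72 and 8.54 for WT, 7.87 and 8.44 for TIA1 KO and 9.56 and 9.58 for TIAR KO MEF. TIA1 KO MEF had the lowest values, but the change against WT MEF of -1.47 ± 0.79 (limma adjusted p = 0.288) lay within the 2.18 that separated the WT arrays, and it was -0.38 without WT replicate 1 and -2.56 without WT replicate 2. A second Tia1 probe (chr6:86381136-86381195) gave -1.62 ± 0.42 and the dimmest of the 3 Tia1 probes 0.87 ± 0.28, neither called by limma. The fitted signs thus differed, but the dimmest probe was not well above background on either WT array. The brightest Tial1 probe (chr7:135585977-135586036) read 13.22 for WT replicate 2, the spot of replicate 1 being an outlier, 14.07 and 13.69 for TIA1 KO and 9.57 and 11.60 for TIAR KO MEF. The change in TIAR KO MEF was -2.63 ± 0.87 (limma adjusted p = 0.200, with 1 WT array). It was -1.62 without TIAR KO replicate 1 and -3.65 without TIAR KO replicate 2, each a difference between 1 array and 1 array with no spread of its own. A second Tial1 probe (chr7:135583306-135583365) fell by 1.58 ± 0.26 (limma adjusted p = 0.0254). The deleted exons are not given in the sources used here, so signal that remains at these probes checks the labels only in part. The brightest of 8 Gapdh probes (chr7:59003199-59003257) read between 18.47 and 18.74 on the 6 arrays. Another (chr6:125111878-125111937) read between 17.37 and 18.52, and no Gapdh probe was called by limma.

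A gene counts as called where its limma p, adjusted by Benjamini and Hochberg over all probes, was under 0.05 and its change above 2-fold. Of the 10 genes, limma called 0 when TIA1 KO were set against WT MEF (2 with an unadjusted p under 0.05) and 1, Rb1, when TIAR KO were (4 with such a p). Of all 55681 probes, 15484 and 11247 had an unadjusted p under 0.05, in the same order. Over all 34797 gene names, each by its brightest probe, the shares called were 4.51% and 7.18%. Over the gene names whose probe was well above background on both arrays of a group, as 9 of the 10 genes were, they were 8.29% and 13.7%. The 10 genes had a median log2 fold change of -0.24 for TIA1 KO and -0.03 for TIAR KO, against -0.07 and -0.01 over all gene names and -0.21 and -0.03 over those well above background. When TIAR KO MEF were set against TIA1 KO MEF directly, Rb1 was again the 1 gene called, with 4.18% of all gene names called and 7.84% of those well above background. Both knockouts were compared with the same WT arrays. The choice of scaling mattered for TIA1 KO MEF. Scaling to a common median moved the median of all probes by -0.68 against WT MEF and gave 8 of the 10 genes as called, all lower. With that scaling limma called 1857 of all 55681 probes higher and 14184 lower in TIA1 KO MEF.

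**Figure D1:**
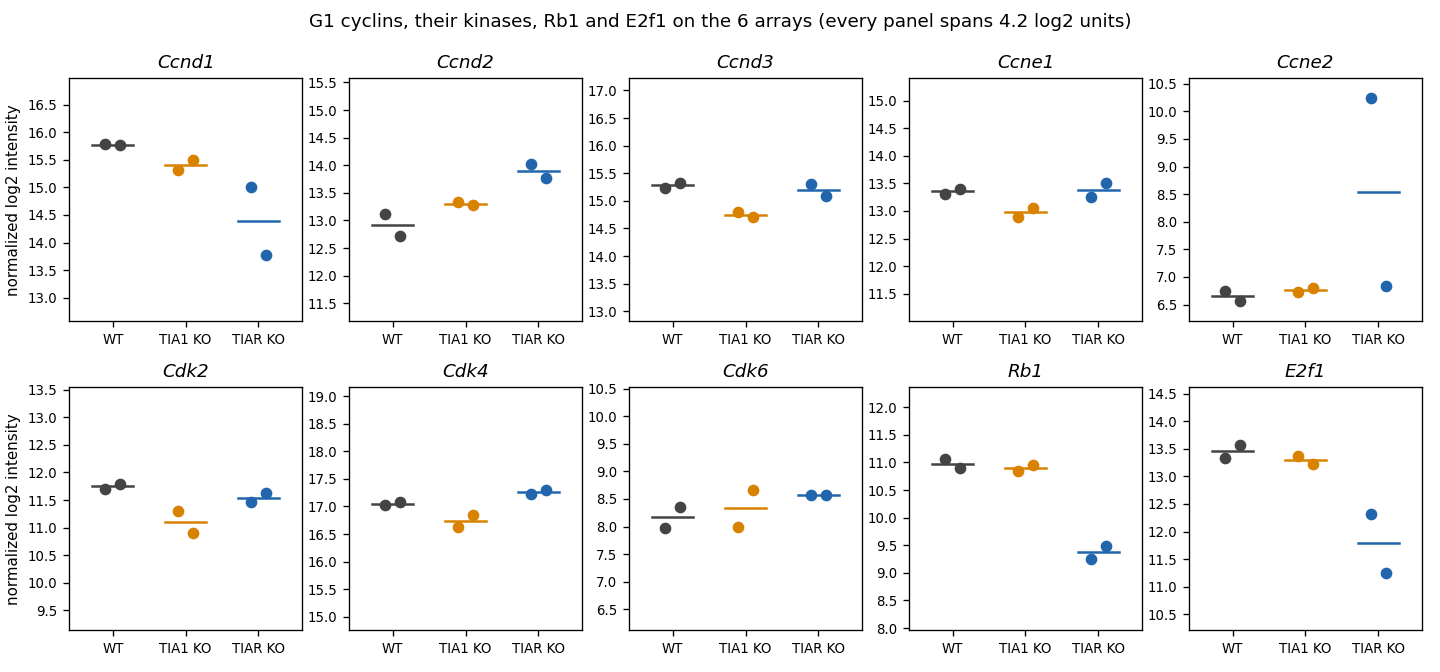
Normalized log2 intensity (y axis) of the brightest probe of each gene on the 2 WT, 2 TIA1 KO and 2 TIAR KO arrays (x axis, points), with group means as lines and the same span of values in every panel. Rb1 and E2f1 sit lower on both TIAR KO arrays than on the other 4, and Ccne2 is high on 1 TIAR KO array, at 10.24.

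Rb1 encodes the pocket protein that restrains E2F factors. Its probe (mm9, chr14:73595408-73595467) was printed on 10 spots per array and read 11.06 and 10.89 for WT, 10.84 and 10.95 for TIA1 KO and 9.26 and 9.49 for TIAR KO MEF. Both TIAR KO arrays lay below the other 4, and the WT and TIA1 KO arrays overlapped. Rb1 fell by 1.60 ± 0.16 in TIAR KO MEF against WT MEF (limma adjusted p = 0.00541, 95% confidence interval -2.02 to -1.19), while in TIA1 KO MEF the change was -0.08 ± 0.16 (limma adjusted p = 0.757, interval -0.52 to 0.36). Against TIA1 KO MEF, Rb1 in TIAR KO MEF was lower by 1.52 on the log2 scale ± 0.17, with a limma adjusted p of 0.0334. The order of the levels was thus TIAR KO below TIA1 KO and WT MEF, with no difference beyond the spread between the latter pair in these values. With arrays scaled to a common median, Rb1 was also called lower in TIA1 KO than in WT MEF (-1.43, limma adjusted p = 0.0139), the median of all probes being then at -0.68. The single spots of Rb1 spread widely within an array, from 9.64 to 11.46 on the second WT array and from 8.15 to 9.85 on the first TIAR KO array. In the log2 values that the authors deposited, Rb1 averaged over its spots read 11.16 and 10.999 for WT, 10.99 and 11.11 for TIA1 KO and 9.47 and 9.64 for TIAR KO MEF. The fall against WT MEF was called under each of 13 alternative settings, between -1.98 and -1.49. The difference from TIA1 KO MEF was not called without TIAR KO replicate 1 (-1.41, limma adjusted p = 0.305) or TIAR KO replicate 2 (-1.64, limma adjusted p = 0.282), where limma called no probe of the whole array (6319 and 6408 had an unadjusted p under 0.05), nor with a replicate block (-1.52, limma adjusted p = 0.119) or the processed signals (-1.69, limma adjusted p = 0.0695). It was -0.55 when arrays were scaled to a common median, a setting in which the median of all probes moved by 0.63.

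E2f1 encodes an activating E2F factor. Its probe (chr2:154385798-154385857) read 13.34 and 13.56 for WT, 13.37 and 13.23 for TIA1 KO and 12.32 and 11.26 for TIAR KO MEF. As for Rb1, both TIAR KO arrays lay below the other 4, but they differed from each other by 1.06. The change in TIAR KO MEF against WT MEF was -1.66 ± 0.36 (interval -2.57 to -0.75), and its limma adjusted p of 0.0585 missed the threshold. It passed when arrays were scaled to a common median (-2.10, limma adjusted p = 0.0337) and when only probes well above background were tested (limma adjusted p = 0.0445). Without TIAR KO replicate 2 it was -1.13. Without TIAR KO replicate 1 it was -2.19 (limma adjusted p = 0.0176), but this drops the difference between the TIAR KO arrays, and the 1 left is assumed to vary like the WT arrays. In TIA1 KO MEF the change was -0.15 ± 0.17 (limma adjusted p = 0.579), and TIAR KO against TIA1 KO MEF gave -1.51 ± 0.39 (limma adjusted p = 0.141).

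The D-type cyclins showed 3 different orders of the groups, and none of them passed the test. Ccnd1 (chr7:152116202-152116261) read 15.78 and 15.76 for WT, 15.31 and 15.50 for TIA1 KO and 15.00 and 13.77 for TIAR KO MEF. No groups overlapped, with WT highest and TIAR KO lowest, but the 2 TIAR KO arrays differed by 1.23, and the change against WT MEF was -1.38 ± 0.40 (limma adjusted p = 0.125, interval -2.40 to -0.37). Ccnd1 in TIAR KO MEF gave -0.77 without TIAR KO replicate 2 and -1.999 without TIAR KO replicate 1. The latter was called, but the TIAR KO array left has no spread of its own. The error then rests on the WT arrays, which differed by 0.014, and in part on the spread of other probes. In TIA1 KO MEF the change was -0.37 ± 0.16 (limma adjusted p = 0.224), and scaling to a common median made it -1.93.

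Ccnd2 (chr6:127098696-127098755) ran the other way. It read 13.13 and 12.72 for WT, 13.33 and 13.27 for TIA1 KO and 14.03 and 13.78 for TIAR KO MEF. The groups did not overlap, WT was lowest and TIAR KO highest. The change in TIAR KO MEF was 0.98 ± 0.20 (interval 0.47 to 1.49), with a limma adjusted p of 0.0501 and a 1.98-fold difference, so it missed both thresholds by little. In TIA1 KO MEF the change was 0.38 ± 0.20 (limma adjusted p = 0.288), and it turned to -1.23 when arrays were scaled to a common median.

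Ccnd3 (chr17:47736579-47736638) read 15.23 and 15.33 for WT, 14.79 and 14.71 for TIA1 KO and 15.31 and 15.08 for TIAR KO MEF. Only the TIA1 KO arrays stood apart, below the other 4, with a change of -0.53 ± 0.15 (limma adjusted p = 0.131, interval -0.94 to -0.12). In TIAR KO MEF the brightest probe gave -0.09 and the second probe (chr17:47736267-47736326) 0.10, each within its error, so the probes differed in sign.

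The E-type cyclins gave no call. Ccne1 (chr7:38882937-38882960) read 13.31 and 13.40 for WT, 12.89 and 13.06 for TIA1 KO and 13.25 and 13.51 for TIAR KO MEF, so that TIA1 KO was lowest and the other groups overlapped. The change in TIA1 KO MEF was -0.38 ± 0.16 (limma adjusted p = 0.217), and a second, dimmer probe gave -0.83 ± 0.31 (limma adjusted p = 0.186). In TIAR KO MEF the 2 probes gave 0.03 and 0.02, and the brighter one gave -0.41 when arrays were scaled to a common median.

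Ccne2 (chr4:11131423-11131482) was high on 1 array alone. It read 6.74 and 6.56 for WT and 6.72 and 6.80 for TIA1 KO, not well above background on any of these arrays, and 10.24 and 6.84 for TIAR KO, where only replicate 1 was well above background. The fitted change of 1.89 ± 1.05 was not called (limma adjusted p = 0.419, interval -0.78 to 4.55), and it was 3.59 without TIAR KO replicate 2 and 0.19 without replicate 1. The former passed the test, but with 1 TIAR KO array left its error rests on the WT arrays, which both lay at background, and in part on other probes. The genes most like Ccne2 over the 6 arrays, among 18411 gene names well above background in at least 1 group, were a lincRNA probe on chromosome 3 (Pearson r = 0.992), Emc10 (0.987) and P2ry10b (0.985). Each was also highest on TIAR KO replicate 1, at 11.97, 13.01 and 12.05, so that 1 array sets these correlations. That array held 123 probes more than 2 log2 units above the highest of the other 5 arrays, against 9 on TIAR KO replicate 2, 48 and 21 on the WT arrays, and 518 and 95 on the TIA1 KO arrays.

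None of the kinases was called, and the group means of each lay within 1 log2 unit. Scaling to a common median, with its shift of all probes, called Cdk2 (-2.17, limma adjusted p = 0.000125) and Cdk4 (-1.84, limma adjusted p = 0.00122) lower in TIA1 KO than in WT MEF and both higher in TIAR KO than in TIA1 KO MEF (1.54 and 1.61). Cdk4 (chr10:126504279-126504338), the main partner of D-type cyclins in many cells, read 17.02 and 17.08 for WT, 16.62 and 16.84 for TIA1 KO and 17.23 and 17.29 for TIAR KO MEF. The 3 groups did not overlap, but TIA1 KO MEF gave -0.32 ± 0.17 (limma adjusted p = 0.276) and TIAR KO MEF 0.21 ± 0.14 (limma adjusted p = 0.502), the latter turning to -0.23 when arrays were scaled to a common median and to -0.12 with the processed signals of the scanner software. The other 2 Cdk4 probes had the same signs in each comparison. Cdk2 (chr10:128135658-128135717), the partner of E-type cyclins, read 11.71 and 11.79 for WT, 11.31 and 10.90 for TIA1 KO and 11.47 and 11.62 for TIAR KO MEF. Its lowest values were in TIA1 KO MEF, at -0.64 ± 0.21 against WT MEF (limma adjusted p = 0.150, interval -1.20 to -0.08). Cdk6 (chr5:3522106-3522165), the other partner of D-type cyclins, was dim and read 7.98 and 8.35 for WT, 8.00 and 8.66 for TIA1 KO and 8.58 and 8.57 for TIAR KO. The TIA1 KO arrays overlapped both other groups, while both TIAR KO arrays lay above both WT arrays, with changes of 0.16 ± 0.30 for TIA1 KO and 0.41 ± 0.18 for TIAR KO against WT MEF, neither called by limma (adjusted p = 0.728 and 0.295).

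**Figure D2:**
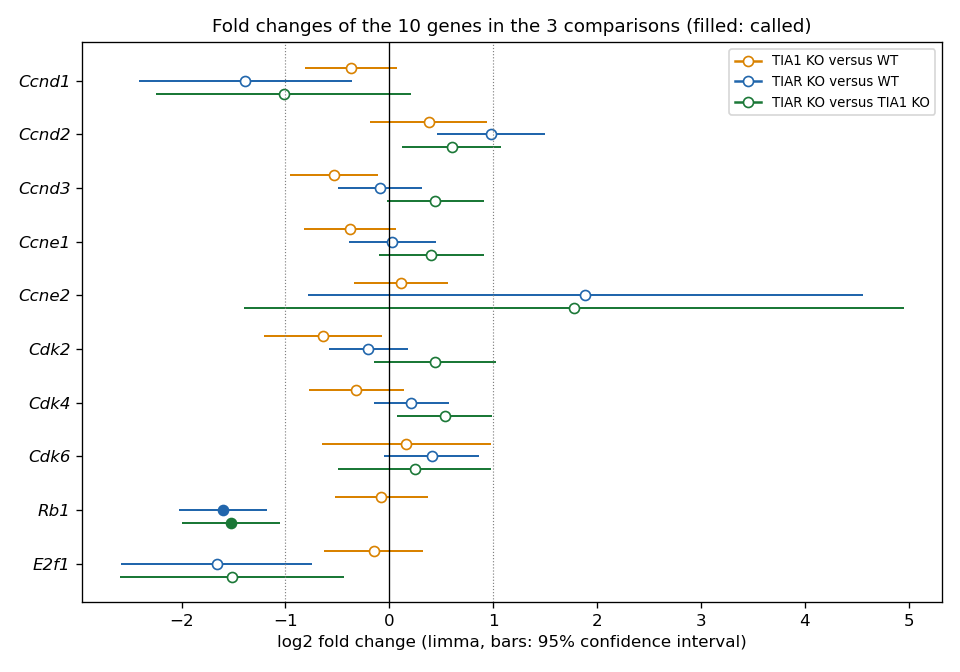
Log2 fold change (x axis) of the 10 genes (y axis) in TIA1 KO versus WT, TIAR KO versus WT and TIAR KO versus TIA1 KO MEF, with 95% confidence intervals from limma as bars and filled points for called changes. Only Rb1 has filled points, at -1.60 and -1.52, and dotted lines mark 2-fold.

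Among 11 relatives of Rb1 and E2f1 (Rbl1, Rbl2, E2f2 to E2f8, Tfdp1 and Tfdp2), limma called 1 for TIA1 KO and 3 for TIAR KO against WT MEF, where it called 8.29% and 13.7% of gene names well above background. For TIA1 KO the count was 9 with arrays scaled to a common median, where limma called 1857 of 55681 probes higher and 14184 lower. It was 3 with all groups fitted together, where 1881 probes were called higher and 2105 lower. E2f2, another activating E2F factor, read 12.81 and 12.64 for WT, 11.26 and 10.98 for TIA1 KO and 10.31 and 10.00 for TIAR KO MEF. The groups did not overlap, and E2f2 fell in both knockouts, by 1.60 ± 0.18 in TIA1 KO MEF (limma adjusted p = 0.0332) and by 2.57 ± 0.18 in TIAR KO MEF (limma adjusted p = 0.00152). Without WT replicate 1 or 2, limma called no probe of the array in TIA1 KO MEF (7204 and 7417 had an unadjusted p under 0.05), and E2f2 was then -1.52 and -1.69. The call in TIA1 KO MEF was also lost with the deposited log2 table (-1.54, limma adjusted p = 0.0542), with a replicate block (-1.60, 0.0689) and with the processed signals (-1.76, 0.0750), where limma called no probe of the array (27765 had an unadjusted p under 0.05).
E2f8, an atypical repressive E2F, fell in TIAR KO MEF, to 11.11 and 11.23, against 12.39 and 12.38 for WT and 12.47 and 12.63 for TIA1 KO. The change against WT MEF was -1.22 ± 0.14 (limma adjusted p = 0.00885), and it missed the threshold without TIAR KO replicate 1 (-1.15, limma adjusted p = 0.0526) and with the processed signals (-1.58, 0.0632). E2f6, a repressive E2F that does not bind Rb, rose in TIAR KO MEF from 10.71 and 11.30 to 12.54 and 12.17, with values of 11.99 and 12.01 in TIA1 KO MEF. Its change of 1.35 ± 0.25 (limma adjusted p = 0.0385) was not called without WT replicate 1 (1.06), TIAR KO replicate 1 (1.16) or TIAR KO replicate 2 (1.53), with arrays scaled to a common median (0.92, limma adjusted p = 0.140), with the processed signals (1.39, 0.102) or with a replicate block (1.35, 0.0591). Rbl1, which encodes the Rb relative p107, gave -0.63 ± 0.16 in TIAR KO MEF at its brightest probe (limma adjusted p = 0.0953), while a second probe was called at -1.96 ± 0.15 (limma adjusted p = 0.00218), so its probes disagreed in call.

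Of the 7 CDK inhibitor genes, 2 were called for TIA1 KO (Cdkn2a and Cdkn2b) and 1 for TIAR KO (Cdkn1a), each lower than in WT MEF, beside 8.29% and 13.7% of gene names well above background. With arrays scaled to a common median, 5 of the 7 were called for TIA1 KO, where limma called 1857 of 55681 probes higher and 14184 lower. Cdkn1a, which encodes p21, read 12.37 and 12.42 for WT, 13.24 and 13.17 for TIA1 KO and 10.14 and 10.38 for TIAR KO MEF. It fell in TIAR KO MEF by 2.13 ± 0.16 against WT MEF (limma adjusted p = 0.00189) and was at -2.94 ± 0.17 against TIA1 KO MEF (limma adjusted p = 0.00942), and TIA1 KO MEF gave 0.81 ± 0.15 against WT MEF (limma adjusted p = 0.0776).
Cdkn2a, the gene of p16 and Arf, read 15.64 and 15.62 for WT, 12.42 and 12.49 for TIA1 KO and 16.01 and 16.22 for TIAR KO MEF. It fell by 3.18 ± 0.15 in TIA1 KO MEF (limma adjusted p = 0.00582), and a second probe fell by 3.49. Cdkn2b, its neighbour that encodes p15, read 12.16 and 12.59 for WT, 10.67 and 10.41 for TIA1 KO and 12.76 for each TIAR KO array, a fall of 1.84 ± 0.23 in TIA1 KO MEF (limma adjusted p = 0.0392), while a second probe gave -1.71 and was not called (limma adjusted p = 0.0778). These calls in TIA1 KO MEF were also lost without either WT array, with changes of -3.17 and -3.19 for Cdkn2a and -2.06 and -1.62 for Cdkn2b. With the processed signals, where limma called no probe of the array in TIA1 KO MEF, the changes were -3.47 for Cdkn2a and -2.63 for Cdkn2b (limma adjusted p = 0.0587 and 0.0662). Cdkn2b was also not called with a replicate block (-1.84, limma adjusted p = 0.0893). Cdkn1b, which encodes p27, read 12.75 and 12.89 for WT, 12.001 and 12.24 for TIA1 KO and 13.73 and 13.84 for TIAR KO MEF, and was called only between the knockouts (1.66 ± 0.17, limma adjusted p = 0.0285). A second, dimmer Cdkn1b probe gave 0.85 ± 0.22 between the knockouts and was not called (limma adjusted p = 0.142). In TIAR KO against WT MEF that probe gave -0.09, where the brightest gave 0.96. Against TIA1 KO MEF, TIAR KO MEF were also called for Cdkn2a (3.66) and Cdkn2b (2.22), and without either TIAR KO array limma called no probe of that comparison. As normalized here, 4 of the 7 were called between the knockouts, where 7.84% of gene names well above background were. The replicate block left none of the 4 inhibitor genes called there, and no probe of the array. With the processed signals Cdkn2a alone of the 4 was called, where limma called 125 of 55681 probes higher and 1384 lower. Over the alternatives, Cdkn1a ran from -3.06 to -1.70 there (and from -2.55 to -1.35 against WT MEF, the smallest with the mean of all its probes) and Cdkn1b from 1.26 to 2.83.

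The 25 E2F target genes fixed for this report, most of them genes of DNA replication and nucleotide supply, were lower in TIAR KO MEF than in WT MEF for 23 of 25, with a median log2 fold change of -0.76, against -0.03 over gene names well above background. Of the 25, 4 were called, where 13.7% of gene names well above background were. More than 4 were called for TIAR KO with arrays scaled to a common median, where limma called 1403 of 55681 probes higher and 2776 lower. In TIA1 KO MEF 21 of 25 were lower, with a median of -0.37, against -0.21 over gene names well above background. Of the 25, 1 was called there, where 8.29% of gene names well above background were. All 25 were called for TIA1 KO with arrays scaled to a common median, where limma called 1857 of 55681 probes higher and 14184 lower. All 25 were well above background on at least 1 array. Prim1, a subunit of DNA primase, read 15.26 and 15.30 for WT, 14.73 and 14.85 for TIA1 KO and 13.98 and 13.25 for TIAR KO MEF. It fell by 1.67 ± 0.26 in TIAR KO MEF (limma adjusted p = 0.0223). Dnmt1, the maintenance DNA methyltransferase, fell from 13.27 and 13.22 to 11.83 and 11.91 (-1.38 ± 0.14, limma adjusted p = 0.00541), with 12.71 and 12.76 in TIA1 KO MEF.
Mybl2, a transcription factor of the dividing cell, fell from 14.60 and 14.96 to 13.41 and 13.57 (-1.29 ± 0.18, limma adjusted p = 0.0162), and Orc1, a subunit of the origin recognition complex, from 10.31 and 10.38 to 8.93 and 9.42 (-1.17 ± 0.21, limma adjusted p = 0.0311). For all 4 genes the TIA1 KO values lay between those of the other groups. Of the 4, Dnmt1 was called with each array left out in turn. Prim1 lost its call without WT replicate 1 (-1.68) or WT replicate 2 (-1.65), Mybl2 without WT replicate 2 (-1.11), TIAR KO replicate 1 (-1.21) or TIAR KO replicate 2 (-1.37), and Orc1 without WT replicate 1 (-1.21), WT replicate 2 (-1.13) or TIAR KO replicate 1 (-0.93). Orc1 also lost it with all 3 groups fitted together (limma adjusted p = 0.0820). With the processed signals of the scanner software 0 of the 25 were called by limma in TIAR KO MEF. The changes were then -1.53 for Prim1, -1.29 for Dnmt1, -1.50 for Mybl2 and -1.28 for Orc1. Of all 55681 probes limma called 1553 higher and 973 lower there. Ung, a uracil-DNA glycosylase, was the 1 target called in TIA1 KO MEF, from 15.71 and 15.99 to 14.47 and 14.48 (-1.37 ± 0.17, limma adjusted p = 0.0396), and it read 15.68 and 15.83 in TIAR KO MEF. It lost that call in 6 of 13 alternative settings: without either WT array, with an offset of 16 (limma adjusted p = 0.0559), the deposited log2 table (0.0558), the processed signals (0.0750, with no probe of the array called) or a replicate block (0.0901), at changes between -1.63 and -1.24.

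**Figure D3:**
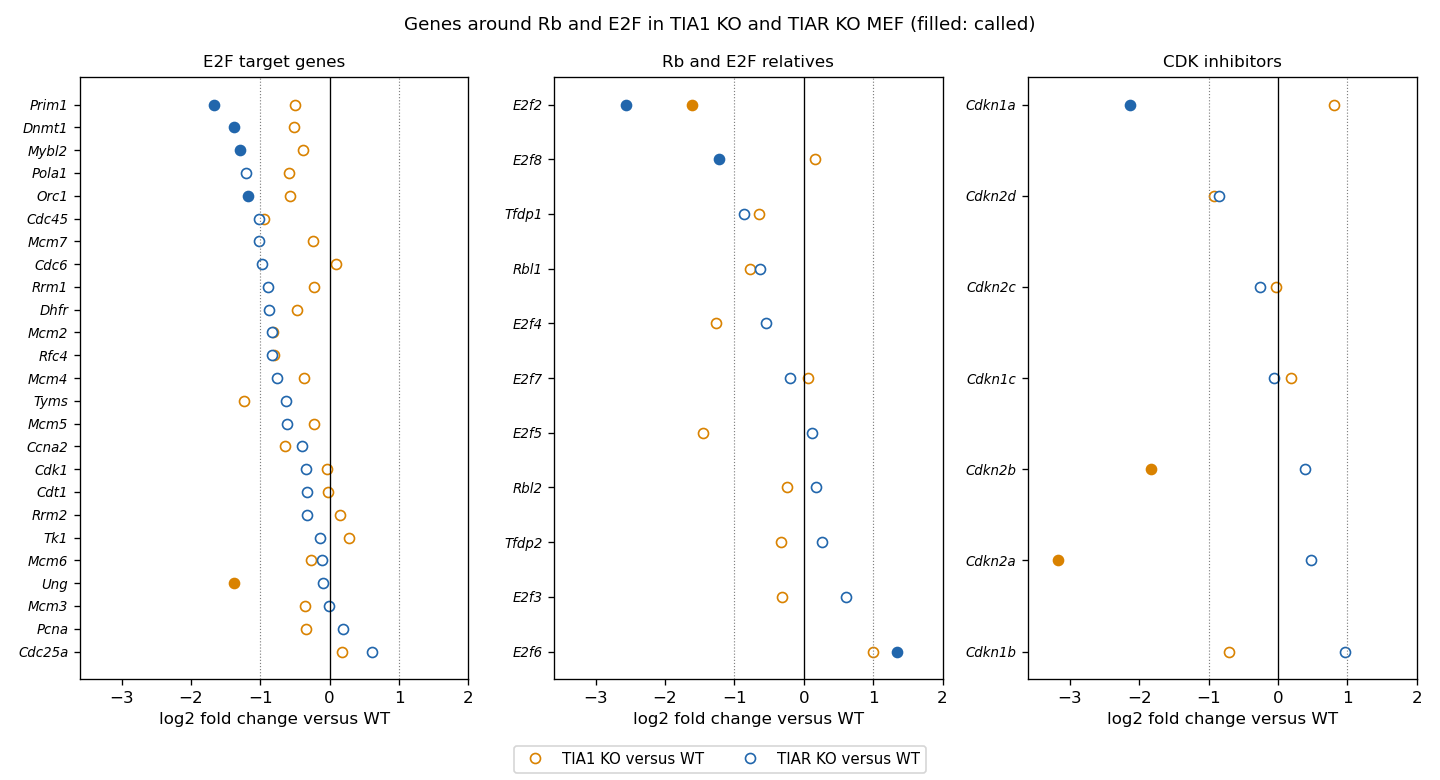
Log2 fold change against WT MEF (x axis) of the E2F target genes, the relatives of Rb1 and E2f1 and the CDK inhibitor genes (y axis, sorted by TIAR KO) in TIA1 KO and TIAR KO MEF, with filled points for called changes and dotted lines at 2-fold. Prim1, Dnmt1, Mybl2 and Orc1 are called in TIAR KO MEF, Cdkn2a and Cdkn2b in TIA1 KO MEF, and E2f2 in both.

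Promoter windows are shown for the E2F letters they hold, in a gene that fell (Orc1), in a target that was not called (Mcm6) and in the 1 member with a match (Cdk2). The windows are the 250 bases before a RefSeq gene start in GRCm38.p6. E2F factors are known to bind TTTCCCGC and its variants TTTGGCGC, TTTCGCGC and TTTGCCGC, and these 4 words were searched on both strands. At least 1 of them stood in 1.86% of 32851 windows, and in a window of 2.16% of 27025 genes. The table held a window for 6 of the 10 genes, of which 1 had a match (the single window of E2f1, without one, belongs to a start that appears to lie within the gene), for 9 of the 11 relatives, of which 4 had one, and for 22 of the 25 target genes, of which 9 had one. Of the 4 targets that fell in TIAR KO MEF, Orc1 and Dnmt1 had a match and Prim1 and Mybl2 had none. A match is a description of the letters and not a bound site. Capitals mark the matches, and the first match of Mcm6 is an overlap of TTTGGCGC with TTTCGCGC on the other strand.
Orc1, chr4:108579204-108579453, plus strand: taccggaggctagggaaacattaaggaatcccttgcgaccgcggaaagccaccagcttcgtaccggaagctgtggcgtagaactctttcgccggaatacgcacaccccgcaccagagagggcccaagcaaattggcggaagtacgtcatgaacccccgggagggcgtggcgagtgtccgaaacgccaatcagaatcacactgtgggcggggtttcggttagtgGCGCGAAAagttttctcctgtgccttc
Mcm6, chr1:128359706-128359955, minus strand: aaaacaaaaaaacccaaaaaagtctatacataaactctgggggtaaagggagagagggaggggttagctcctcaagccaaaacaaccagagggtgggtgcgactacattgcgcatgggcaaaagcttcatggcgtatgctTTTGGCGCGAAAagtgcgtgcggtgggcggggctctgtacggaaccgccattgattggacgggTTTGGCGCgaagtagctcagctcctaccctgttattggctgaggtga
Cdk2, chr10:128705052-128705301, minus strand: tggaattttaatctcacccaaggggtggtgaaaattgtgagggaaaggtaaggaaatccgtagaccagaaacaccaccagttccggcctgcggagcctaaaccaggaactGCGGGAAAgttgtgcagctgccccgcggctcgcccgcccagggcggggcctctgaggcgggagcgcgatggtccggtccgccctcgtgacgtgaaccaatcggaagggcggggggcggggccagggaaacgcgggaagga
Mcm6, a helicase subunit whose window held the most matches of the list, read 16.70 and 16.72 for WT and 16.73 and 16.48 for TIAR KO MEF, a change of -0.11 ± 0.16 (limma adjusted p = 0.784).

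None of the 10 genes that activate G1 kinases or turn over their partners (Cdc25a, which is also among the E2F targets, Cdk7, Ccnh, Mnat1, Cdc37, Skp2, Cks1b, Fbxw7, Fbxo4 and Wee1) was called by limma in any comparison, with 3 at an unadjusted p under 0.05 in each. Over all 55681 probes, 15484 had such a p in TIA1 KO versus WT MEF and 11247 in TIAR KO versus WT MEF. In TIAR KO versus TIA1 KO MEF 12599 had one. With arrays scaled to a common median, 8 of these 10 were called for TIA1 KO against WT MEF. Of all 55681 probes limma then called 1857 higher and 14184 lower. As normalized here, the log2 fold changes of the 10 ran from -0.89 to 0.39 in TIA1 KO MEF and from -0.75 to 0.61 in TIAR KO MEF. Among 11 other cell cycle cyclins and kinases, limma called 0 for TIA1 KO, with 4 at an unadjusted p under 0.05, and 1 for TIAR KO MEF, beside 8.29% and 13.7% of gene names well above background. For TIA1 KO the count was 7 with arrays scaled to a common median, where limma called 1857 of 55681 probes higher and 14184 lower. The gene called for TIAR KO was Ccng2, a cyclin of resting cells, which rose from 7.55 and 7.43 to 8.91 and 9.13 (1.53 ± 0.16, limma adjusted p = 0.00547), and read 9.47 and 7.97 in TIA1 KO MEF. It was not called with all 3 groups fitted together (limma adjusted p = 0.173), and over the alternatives its change ran from 1.38 to 2.596. Ccng1, a p53 target gene, read 12.76 and 12.09 for WT, 14.13 and 13.76 for TIA1 KO and 12.43 and 12.06 for TIAR KO MEF. It was called only between the knockouts (-1.71 ± 0.23, limma adjusted p = 0.0463), a call lost in 8 of 13 alternative settings, where the change was -0.59 (limma adjusted p = 0.349) with arrays scaled to a common median.

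Markers of the labelled cell type moved with the groups. Of 12 fibroblast markers, the number well above background was 7 and 9 for WT, 8 and 9 for TIA1 KO and 10 for each TIAR KO array. Vim and S100a4 were bright in all groups, while Pdgfra read 6.37 and 6.40 for WT, near background, 10.05 and 10.23 for TIA1 KO and 11.68 and 11.51 for TIAR KO MEF. Pdgfra rose at least 9.52-fold in TIA1 KO and at least 26.1-fold in TIAR KO MEF (limma adjusted p = 0.00521 and 0.000189), limits set by the lowest signal rated as well above background on each WT array. Dcn read 6.57 and 6.62 for WT, 9.24 and 9.29 for TIA1 KO and 15.67 and 15.82 for TIAR KO MEF, and Lum was near background on every array. Against WT MEF, 7 fibroblast markers rose for TIA1 KO and 8 for TIAR KO, and the summed linear signal of the 12 was 533734 and 567320 for WT, 1315160 and 1289890 for TIA1 KO and 1392530 and 1418980 for TIAR KO, to which the S100a4 or the Col1a2 probe gave the most signal on each array.
Mesothelial markers separated TIAR KO MEF from the other groups. Upk3b read 6.84 and 6.31 for WT, 6.35 and 7.42 for TIA1 KO and 13.95 and 14.15 for TIAR KO MEF, a rise of at least 143-fold over WT MEF (limma adjusted p = 0.000206), and Wt1 and Lrrn4 also rose there. Msln, the remaining one of the 4, was high in all groups and fell in TIAR KO MEF by 1.62. Its probe gave most of the summed signal of the 4, which therefore ran against the 3 that rose and was 90773 and 56698 for WT, 241955 and 209334 for TIA1 KO and 44259 and 41454 for TIAR KO. Of 6 epithelial markers 2 rose for TIA1 KO and 3 for TIAR KO, of 6 macrophage markers 1 fell in TIAR KO MEF, and of 5 endothelial markers 0 were called by limma against WT MEF, with 1 at an unadjusted p under 0.05 in each knockout. Over all gene names 4.51% and 7.18% were called, and 15484 and 11247 of 55681 probes had an unadjusted p under 0.05. The part of these differences in cell character in the results on Rb1, E2f1 and their targets was not tested. In RNA of whole cultures, fewer cells of a kind and less RNA per cell cannot be told apart.

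**Figure D4:**
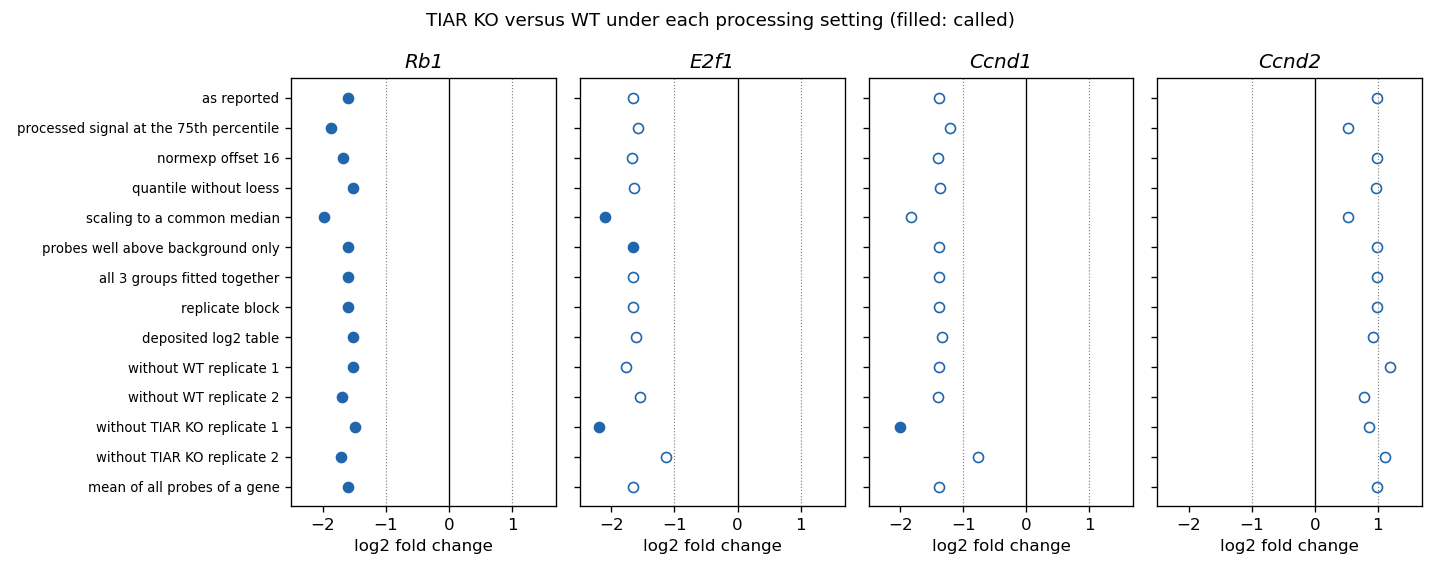
Log2 fold change in TIAR KO versus WT MEF (x axis) of Rb1, E2f1, Ccnd1 and Ccnd2 under each way of processing the arrays (y axis), with filled points for called changes and dotted lines at 2-fold. Rb1 is called under every setting, between -1.98 and -1.49, E2f1 in 3 of the alternatives, Ccnd1 only without TIAR KO replicate 1, and Ccnd2 in none.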

How the data were processed

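RNA of 6 samples was hybridized to 1-colour Agilent mouse arrays. The authors deposited the intensity of every spot with its local background, as measured by Agilent Feature Extraction (version 10.7.3.1), and a table of log2 values that they had normalized. Probe positions are on mm9, per the file headers. Mean intensities were background-corrected here by normexp (offset 50), log2-transformed, then smoothed by loess (1 pass) and quantile normalized. Control and outlier spots were left out, and spots of a probe were averaged. Each comparison was fitted with limma 3.58.1 (R 4.3.3) on its own 4 arrays, without covariates, after a test on simulated data, and calls needed a Benjamini-Hochberg adjusted p under 0.05 over all 55681 probes and a change above 2-fold. Between 16021 and 26295 probes per array were well above background, taken as a rating of 50% or more of a probe's spots, and no spot was saturated. Precision is limited by the number of arrays.

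The genes and lists were chosen with earlier results of these data known. Named were the 10 genes, Tia1, Tial1 and Gapdh, the called genes of each list (at most 6), and the 3 genes most correlated with the member of widest range of measured group means (Ccne2, near background in 2 groups). Mcm6, Rbl1 and the markers were chosen to be named after their values were seen, as were the motif words. Lists covered relatives, CDK inhibitors, activators, other cyclins, E2F targets and markers of 5 cell types. Alternatives were processed signals at the 75th percentile, an offset of 16, no loess, a common median, bright probes only, all groups fitted together, a replicate block, the deposited log2 table, the mean of a gene's probes and each array left out. Sequences are from RefSeq. Figures used Python 3.11.15 and matplotlib 3.10.9.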

Additional observations from a re-analysis of the deposited data

How the results depend on the processing

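The 10 genes were recomputed under each alternative in the 3 comparisons, and 348 of their 387 values kept their direction and their side of the threshold, 18 passed the test only there, 5 lost it and 16 changed sign. The 5 losses were all of Rb1 in TIAR KO versus TIA1 KO MEF. With arrays scaled to a common median, the genes called were 8 in TIA1 KO versus WT, 2 in TIAR KO versus WT and 6 in TIAR KO versus TIA1 KO MEF, while the median of all probes moved by -0.68, -0.03 and 0.63. In the same order, limma called 1857, 1403 and 7334 of 55681 probes higher. It called 14184, 2776 and 1082 lower. With that scaling the log2 fold changes of Ccnd2 (-1.23), Ccne2 (-0.27) and Cdk6 (-0.14) changed sign in TIA1 KO versus WT MEF. Ccne1 (-0.41) and Cdk4 (-0.23) did in TIAR KO versus WT and Ccnd1 (0.10) in TIAR KO versus TIA1 KO MEF. With the median of all probes subtracted, Ccne2 (0.41), Cdk6 (0.54) and Ccnd1 (-0.52) kept the sign of the main fit. Ccnd2 (-0.55), Ccne1 (-0.38) and Cdk4 (-0.19) did not. All 25 E2F target genes were called for TIA1 KO and 9 for TIAR KO, beside the probe counts above. With the processed signals, all probes had a median log2 fold change of 1.98 in TIA1 KO versus WT MEF. It was -1.85 in TIAR KO versus TIA1 KO MEF, where 0 of the 10 genes were called. With these signals Ccnd3 (0.014) and Cdk4 (-0.12) changed sign in TIAR KO versus WT MEF. With bright probes only, 2 genes were called in TIAR KO versus WT MEF, and Ccne2 was not tested, since it was well above background on 1 array alone. With the mean of a gene's probes, Ccnd3 in TIAR KO MEF was 0.0059. The cause was not tested.

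Leaving out 1 array gave 0 called genes in TIA1 KO versus WT, 1 to 3 in TIAR KO versus WT and 0 to 1 in TIAR KO versus TIA1 KO MEF. It turned the sign of changes near 0: Rb1 (-0.16 to 0.0054) and Cdk6 (-0.17 to 0.49) in TIA1 KO versus WT, Ccnd3 (-0.20 to 0.026) and Ccne1 (-0.10 to 0.16; -0.02 without WT replicate 1) in TIAR KO versus WT, and Cdk6 (-0.087 to 0.57) in TIAR KO versus TIA1 KO MEF. Cdk6 in TIA1 KO was -0.02 without WT replicate 1.

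Samples of the same replicate number did not deviate together (r = 0.03, 0.08 and -0.07 over probes), so no sign of a pairing was seen. Such correlations cannot show that samples of the same number were prepared apart. With the replicate number as a block, 0 of the 10 genes were called in TIAR KO versus TIA1 KO MEF, where limma called no probe at all (10684 had an unadjusted p under 0.05), Rb1 being at -1.52 with a limma adjusted p of 0.119.

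Of 285 values of Tia1, Tial1 and the called genes of the lists other than markers, 206 kept their side of the threshold, 76 lost a call, 3 gained one and 0 changed sign.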

Other observations

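The pattern of Rb1 over the 6 arrays was most like that of Pole3 (Pearson r = 0.999), a small subunit of DNA polymerase epsilon, Slc16a6 (0.999) and Acer3 (0.998), among 18410 gene names well above background in at least 1 group. This list was drawn up after the values of Rb1 were seen. Pole3 read 14.28 and 14.22 for WT, 14.19 and 14.22 for TIA1 KO and 13.43 and 13.50 for TIAR KO MEF. The 6 arrays fall into 2 sets here, 2 TIAR KO arrays and the other 4, which is what these correlations share.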
